A study of Mus musculus with 6 samples.

Results

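Voltage-gated sodium and calcium channels open when the membrane depolarizes, and the genes examined here encode their pore-forming and auxiliary subunits. Members were all protein-coding mouse genes whose symbol marks a sodium channel alpha or beta subunit (Scn followed by a number and a or b), a calcium channel alpha1 or alpha2delta subunit (Cacna), a calcium channel beta subunit (Cacnb1 to Cacnb4) or a gamma subunit (Cacng1 to Cacng8). Of 21006 gene identifiers in the expression files, 38 were members. Scn4a and Cacng1, which the rule also names, were not analysed here. Expression was measured in the prefrontal cortex of 6 male wild-type C57BL/6 mice, with 1 animal per library. The age label gives 18 months, whereas the sample titles carry 17M. In the postoperative neurocognitive disorder (PND) group, 3 mice had received isoflurane anesthesia and an exploratory laparotomy, with lidocaine cream and povidone iodine on the incision. In the control (CON) group, 3 mice had undergone no operation and no anesthesia at that stage, so the part of the anesthetic, the operation and the wound care cannot be told apart. Mice of both groups were anesthetized with isoflurane and perfused with saline after the Barnes maze test, just before the tissue was taken, and the whole prefrontal cortex was used, with no separation of layers or cell types. The comparison asked whether RNA levels of these subunits differed between PND and CON.

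As background, a sodium channel alpha subunit forms the whole pore and carries the rapid inward current of the action potential, while beta subunits adjust its gating and bind adhesion molecules. Calcium channel alpha1 subunits fall into the L-type Cav1, the presynaptic and dendritic Cav2 and the low-threshold T-type Cav3 families. The beta and alpha2delta subunits bring Cav1 and Cav2 pores to the membrane. Most Cacng genes expressed in brain encode transmembrane AMPA receptor regulatory proteins (TARPs), which escort glutamate receptors and not calcium channels. In cortex, Scn2a and Scn8a are the main alpha subunits of excitatory neurons and Scn1a that of parvalbumin interneurons.

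The members differed widely in base composition, and in several samples their values moved with it, as described further on. To show this, 6 windows of coding sequence are given, each lying within 1 exon and each with a share of G and C close to that of its gene's longest transcript. They are printed 5′ to 3′ on the coding strand from the GENCODE M21 transcripts on GRCm38, with G and C in capitals. The first 3 come from GC-poor members: Cacnb2 at chr2:14614288-14614347 on the plus strand in exon 2, Scn7a at chr2:66757279-66757338 on the minus strand in exon 2, and Cacnb4 at chr2:52469548-52469607 on the minus strand in exon 5. The last 3 come from GC-rich members: Cacna1h at chr17:25397289-25397348 on the minus strand in exon 5, Cacnb3 at chr15:98639832-98639891 on the plus strand in exon 3, and Cacng8 at chr7:3394383-3394442 on the plus strand in exon 3.
Cacnb2: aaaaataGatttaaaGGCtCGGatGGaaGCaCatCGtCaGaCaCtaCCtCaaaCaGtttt
Scn7a: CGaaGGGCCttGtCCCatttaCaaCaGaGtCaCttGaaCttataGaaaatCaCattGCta
Cacnb4: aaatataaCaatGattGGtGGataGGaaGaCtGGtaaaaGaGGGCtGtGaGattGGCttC
Cacna1h: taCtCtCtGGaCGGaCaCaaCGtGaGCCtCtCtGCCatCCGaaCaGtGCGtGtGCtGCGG
Cacnb3: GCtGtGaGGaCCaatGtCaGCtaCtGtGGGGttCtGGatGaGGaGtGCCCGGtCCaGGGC
Cacng8: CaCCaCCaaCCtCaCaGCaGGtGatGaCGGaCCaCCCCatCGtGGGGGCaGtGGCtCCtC
The windows hold 60 bases each, of which 23 are G or C in Cacnb2, 24 in Scn7a, 24 in Cacnb4, 36 in Cacna1h, 37 in Cacnb3 and 39 in Cacng8. The corresponding longest transcripts were 39.0%, 40.2%, 40.5%, 60.0%, 61.3% and 65.1% GC.

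Levels were given as FPKM, the number of sequenced fragments scaled to transcript length and to library size, which allows genes to be compared. Fragments estimated from the smallest steps of the values amounted to between 7180000 and 9385000 per sample. Neuron markers (Rbfox3, Snap25, Syt1 and Tubb3) summed to 566 to 663 FPKM in PND and 597 to 698 in CON, and excitatory neuron and interneuron markers were also present in every sample. Summed levels of 13 of the 14 marker lists overlapped between the groups. The exception was choroid plexus, of whose 4 genes 2 passed the minimum for testing, at 2.2 to 2.82 FPKM in PND and 1.15 to 1.99 in CON. Of the 38 members, 30 had a mean of at least 1 FPKM, 14 of at least 10 FPKM, and 34 passed the minimum mean of 0.1 FPKM for testing. The 4 below it were Scn11a (8.13 estimated fragments over the 6 samples), Cacna1s (15.4), Cacna1f (3.68) and Cacng6 (7.13). Scn11a is known from sensory ganglia, Cacna1s and Cacng6 from skeletal muscle and Cacna1f from the retina. Each of the 4 was listed at 0 in at least 1 sample.

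**Figure D1:**
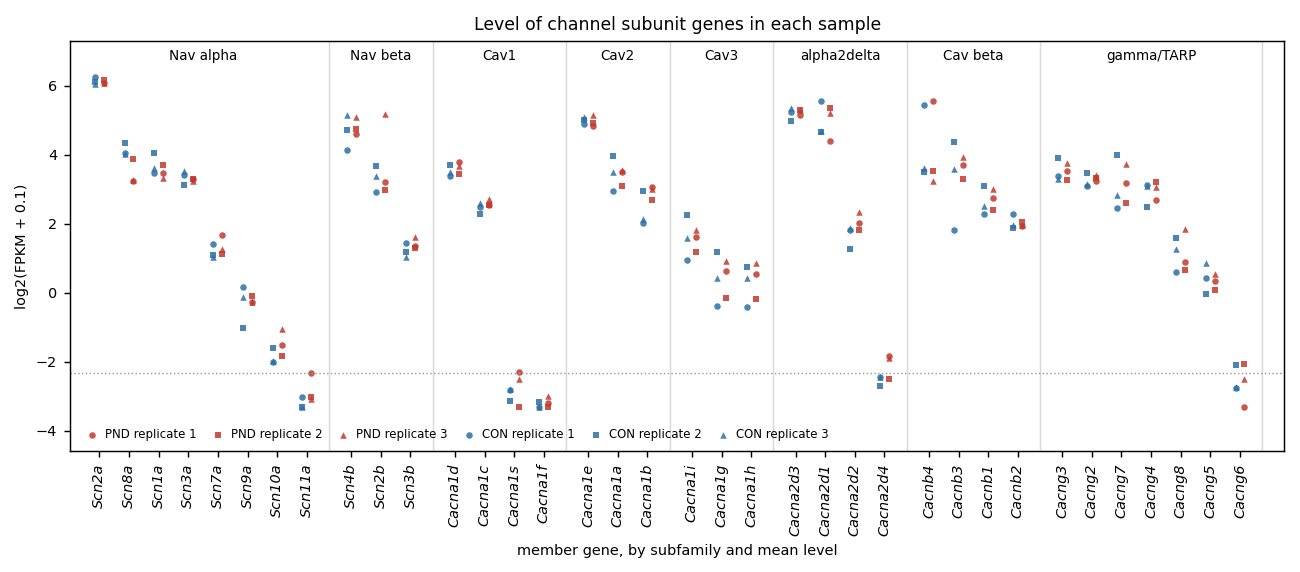
Log2(FPKM + 0.1) of 36 members, grouped by subfamily and ordered by mean level, with 1 point per sample (red, PND; blue, CON; circle, square and triangle, replicates 1, 2 and 3). The dotted line marks 0.1 FPKM, below which a mean left a gene untested. Scn2a is the highest member, and the points of Cacnb4, Scn2b and Cacnb3 are the most widely spread among members above 1 FPKM.

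None of the 34 tested members passed the study's cut-off of an absolute log2 fold change above 1 with an unadjusted p below 0.05, which 1.33% of all 18185 tested genes passed (limma). A single member, Scn8a, had an unadjusted p below 0.05, against 3.13% of all genes. It was also the only member whose groups did not overlap, against 7.66% of all genes. No member had an adjusted p below 0.05 (0.011% of all genes), and the adjusted p of every tested member was 0.9999. On the log2 scale 21 members were higher and 13 lower in PND, with a median log2 fold change of 0.08 beside 0.012 over all genes. Fold changes ran from -0.68 for Scn8a to 0.55 for Cacna1b. The 95% interval lay within 1 of 0 for 23 members and reached beyond it for 11, so for those 11 a change of the size of the cut-off lay inside the interval. The median width of the interval was 1.19 log2 units.

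**Figure D2:**
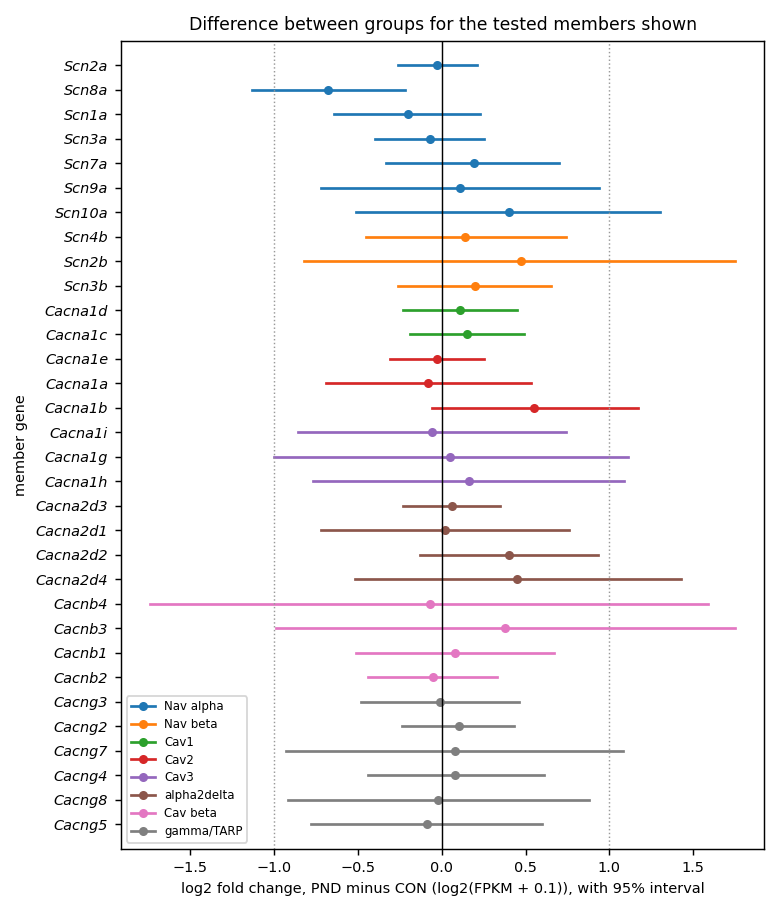
Log2 fold change of PND minus CON with its 95% interval from limma for 32 tested members, coloured by subfamily. The interval of Scn8a lies wholly below 0 and all the others cross it. Dotted lines mark -1 and 1.

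Among sodium channel alpha subunits, Scn2a (chr2:65620771-65767447), the main alpha subunit of immature axons and excitatory cortical neurons, was by far the most abundant. It stood at 67.7, 72.2 and 67.3 FPKM in PND replicates 1, 2 and 3 and at 76.5, 69.3 and 65.4 FPKM in CON replicates 1, 2 and 3. The groups overlapped, with a log2 fold change of -0.03 ± 0.10 (SE, n = 3 per group). Its highest sample was 1.17 times its lowest, the smallest spread among the 30 members of at least 1 FPKM.

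Scn8a (chr15:100869858-101045938), whose protein concentrates at the axon initial segment and nodes of Ranvier, was lower in PND. Its levels were 9.38, 14.4 and 9.49 FPKM in the PND samples and 16.4, 20.1 and 16.2 FPKM in the CON samples. All 3 PND samples lay below all 3 CON samples, with PND replicate 2 the nearest to CON. The means were 11.1 ± 2.89 (SD, n = 3) and 17.5 ± 2.18 FPKM, a log2 fold change of -0.68 ± 0.19 (SE) with a 95% interval of -1.13 to -0.22 by limma. The unadjusted p was 0.00938, and the adjusted p over all genes was 0.9999, so the difference failed the correction. A two-sided exact permutation test on this gene alone gave p = 0.10, the smallest that 3 against 3 animals allow. About 4511 fragments in PND and 6345 in CON lay behind these values. In bulk tissue, fewer cells of a type and less RNA per cell cannot be told apart. Of the 62 genes in the 14 marker lists, 3 lay higher in every PND sample than in any CON sample (1 each of the astrocyte, thalamus and choroid plexus lists) and 3 lower (1 each of the excitatory neuron, astrocyte and microglia lists), beside the 7.66% of all tested genes that did not overlap. The summed lists of excitatory neuron markers (182 to 211 FPKM in PND, 163 to 275 in CON), microglial markers (14.4 to 18.6 and 18.0 to 24.2) and oligodendrocyte markers (110 to 138 and 137 to 150) overlapped. Their part in the Scn8a difference was not tested.

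The other alpha subunits overlapped between groups. Scn1a, the alpha subunit of fast-spiking interneurons, averaged 11.3 ± 1.52 FPKM in PND and 13.1 ± 2.91 in CON, and Scn3a, best known from the embryonic brain, 9.57 ± 0.195 and 10.1 ± 1.38. The neighbours Scn8a, Scn1a and Scn3a in the order of levels overlapped over the 6 samples, whereas Scn2a lay above all of them in every sample. Scn7a, which encodes a sodium sensor that does not open with voltage, ranged from 1.93 to 3.1 FPKM. The alpha subunits known from sensory neurons were low, with means of 0.754 FPKM for Scn9a and 0.222 for Scn10a. Scn9a shares 180 exon bases with the antisense gene Gm13629, listed at 2.65 to 5.02 FPKM, and without strand the reads of both cannot be told apart there. The 5 genes Scn3a, Scn2a, Scn1a, Scn9a and Scn7a lie in 1 cluster on chromosome 2 between 65457118 and 66784914, and their means ranged from 0.754 to 69.7 FPKM.

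Summed over the 9 alpha subunits, levels were 102, 113 and 99.9 FPKM in PND and 118, 117 and 108 in CON. These sums overlapped by a single pair of samples, PND replicate 2 and CON replicate 3. Scn8a made up 9.17%, 12.8% and 9.5% of the sum in PND and 13.9%, 17.1% and 15.0% in CON, without overlap. Scn2a made up 59.1% to 67.4% over all samples. Since shares of a sum depend on one another, they were not tested.

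**Figure D3:**
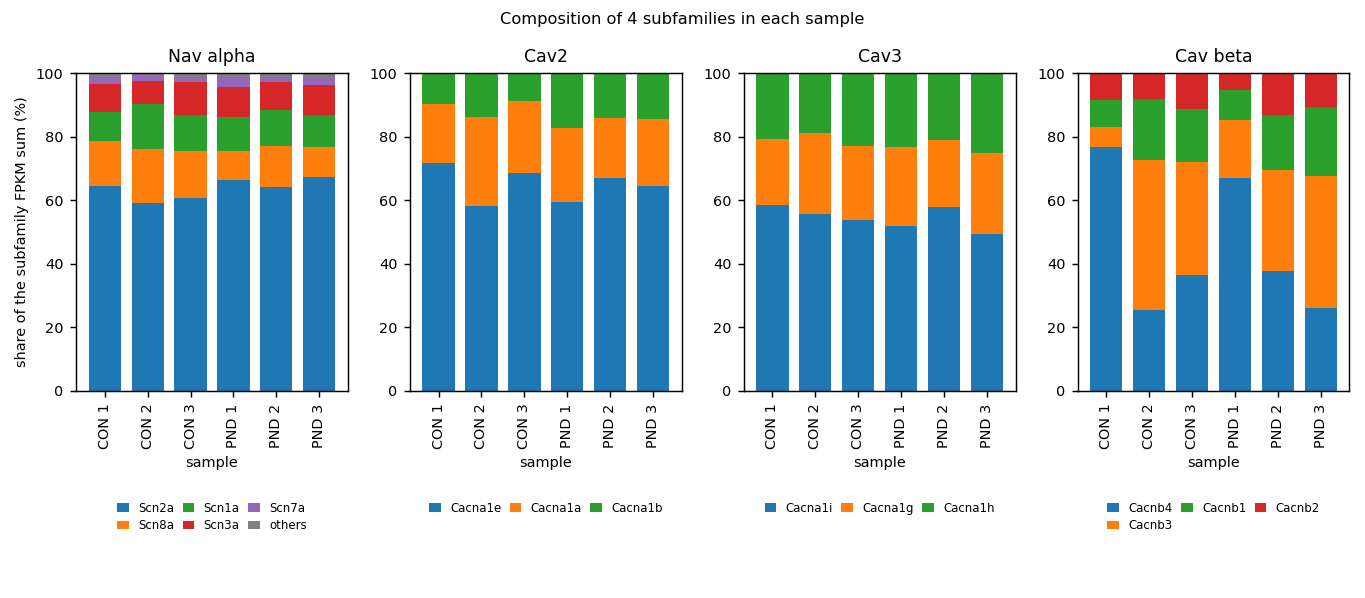
Share of each member in the summed FPKM of its subfamily (percent) in each of the 6 samples, for sodium channel alpha subunits, Cav2, Cav3 and calcium channel beta subunits, with members under 1% in every sample drawn together as others. The Scn8a band is 9.17% to 12.8% of the sum in PND and 13.9% to 17.1% in CON, the Cav3 bands keep similar heights, and Cacnb4 fills most of the bar in PND replicate 1 and CON replicate 1.

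Among sodium channel beta subunits, Scn4b (chr9:45138395-45154152), whose protein supports resurgent sodium current, stood at 24.2, 26.5 and 33.6 FPKM in PND and 17.4, 26.1 and 35.0 in CON. The groups overlapped and the log2 fold change was 0.14 ± 0.25 (SE). Scn3b averaged 2.56 ± 0.32 FPKM in PND and 2.23 ± 0.329 in CON. Scn2b, which like Scn4b encodes a beta subunit bound to the pore by a disulfide and lies next to it on chromosome 9, stood at 9.07, 7.8 and 36.1 FPKM in PND and 7.49, 12.5 and 10.3 in CON. One sample, PND replicate 3, thus lay apart from the other 5, by 1.53 log2 units from its nearest neighbour. The log2 fold change of Scn2b was 0.47 ± 0.55 (SE) with all samples and -0.23 without PND replicate 3. Scn2b made up 30.0% of the beta sum in that sample and 10.3% to 11.6% in the others.

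L-type Cav1 pores were represented by Cacna1d and Cacna1c, the neuronal L-type genes. Cacna1d (chr14:30039939-30491455) stood at 13.7, 10.7 and 12.7 FPKM in PND and 10.3, 12.9 and 11.2 in CON, with overlap and a log2 fold change of 0.11 ± 0.15 (SE). Cacna1c ranged from 4.74 to 6.49 FPKM, with a log2 fold change of 0.15 ± 0.15 (SE). Both 95% intervals, -0.23 to 0.45 and -0.19 to 0.49, lay well inside the cut-off. Cacna1d lay above Cacna1c in every sample, at 65.0% to 73.1% of the Cav1 sum.

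Cav2 pores, which open calcium entry at presynaptic terminals and dendrites, were led by the R-type gene Cacna1e (chr1:154390731-154884501). It stood at 28.3, 30.0 and 35.1 FPKM in PND and 29.3, 32.1 and 33.6 in CON, with a log2 fold change of -0.03 ± 0.12 (SE). The P/Q-type gene Cacna1a averaged 10.4 ± 1.68 FPKM in PND and 11.3 ± 3.88 in CON. The N-type gene Cacna1b (chr2:24603887-24763152) stood at 8.29, 6.38 and 7.84 FPKM in PND and 3.93, 7.64 and 4.28 in CON. The groups overlapped by a single pair of samples, PND replicate 2 and CON replicate 2. Its log2 fold change of 0.55 ± 0.26 (SE) had a 95% interval of -0.06 to 1.17. The unadjusted limma p of 0.0711 was not past the threshold, and an exact permutation test (two-sided) gave p = 0.20. Leaving out 1 sample at a time gave 0.38 to 0.85. The highest value came without CON replicate 2, with an unadjusted limma p of 0.00208 and an adjusted p of 0.7522, and without any of the other samples the unadjusted p was 0.0711 to 0.203. As a share of the Cav2 sum, Cacna1b made up 17.4%, 14.2% and 14.4% in PND and 9.64%, 13.9% and 8.73% in CON, which did not overlap. The nearest samples, at 14.2% and 13.9%, were the same pair that overlapped in FPKM, and the share was not tested. Cacna1b was described by sample after its values were seen, as were Scn2b and Cacnb3.

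T-type Cav3 pores were low. Cacna1i (chr15:80287238-80398279), the most abundant, stood at 2.97, 2.17 and 3.39 FPKM in PND and 1.84, 4.67 and 2.87 in CON, and Cacna1g and Cacna1h averaged 1.34 and 1.21 FPKM over all samples. All 3 were lowest in CON replicate 1, and the Cav3 sum ranged from 3.15 to 8.39 FPKM. The proportions moved less than the levels, with Cacna1i at 49.3% to 58.4% of the sum, Cacna1g at 21.0% to 25.7% and Cacna1h at 18.7% to 24.9%.

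Among alpha2delta subunits, which bind extracellular partners and include the targets of gabapentin, Cacna2d3 (chr14:28904943-29721864) was the most abundant. Its levels were 35.5, 39.0 and 38.8 FPKM in PND and 37.7, 31.3 and 40.6 in CON, with overlap and a log2 fold change of 0.06 ± 0.12 (SE). Cacna2d1, the main gabapentin target, averaged 32.6 ± 10.2 FPKM in PND and 32.3 ± 12.2 in CON, with samples from 21.1 to 46.4 FPKM. Cacna2d2 averaged 4.08 ± 0.747 and 3.09 ± 0.688 FPKM, with a log2 fold change of 0.40 ± 0.23 (SE) and a 95% interval of -0.13 to 0.93. Cacna2d4, known from the retina, averaged 0.107 FPKM over all samples, close to the minimum for testing.

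Among calcium channel beta subunits, Cacnb4 and Cacnb3 varied widely from sample to sample and Cacnb1 and Cacnb2 less. Cacnb4 (chr2:52428320-52676831), the gene mutated in the epileptic lethargic mouse, stood at 46.5, 11.4 and 9.38 FPKM in PND and 42.8, 11.1 and 12.1 in CON. One animal of each group was high, PND replicate 1 and CON replicate 1, and the other 4 lay 1.81 log2 units or more below them. Its log2 fold change was -0.07 ± 0.71 (SE), while leaving out PND replicate 1 gave -0.79 and leaving out CON replicate 1 gave 0.55. Cacnb4 shares 1433 exon bases with the antisense gene A430018G15Rik, which was listed at 0.0718 to 0.457 FPKM. It stood at 0.35 FPKM in PND replicate 1 and 0.207 in CON replicate 1. The part of this overlap in the Cacnb4 values was not tested. Cacnb3 (chr15:98630840-98644529) stood at 12.8, 9.65 and 15.1 FPKM in PND and 3.38, 20.6 and 11.9 in CON, with CON replicate 1 lowest by 1.49 log2 units. Its highest sample was 6.09 times its lowest, the widest spread among the 30 members of at least 1 FPKM. Cacnb1, which serves the skeletal muscle channel as well as neurons, ranged from 4.77 to 8.48 FPKM, and Cacnb2 from 3.59 to 4.72 FPKM.

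**Figure D4:**
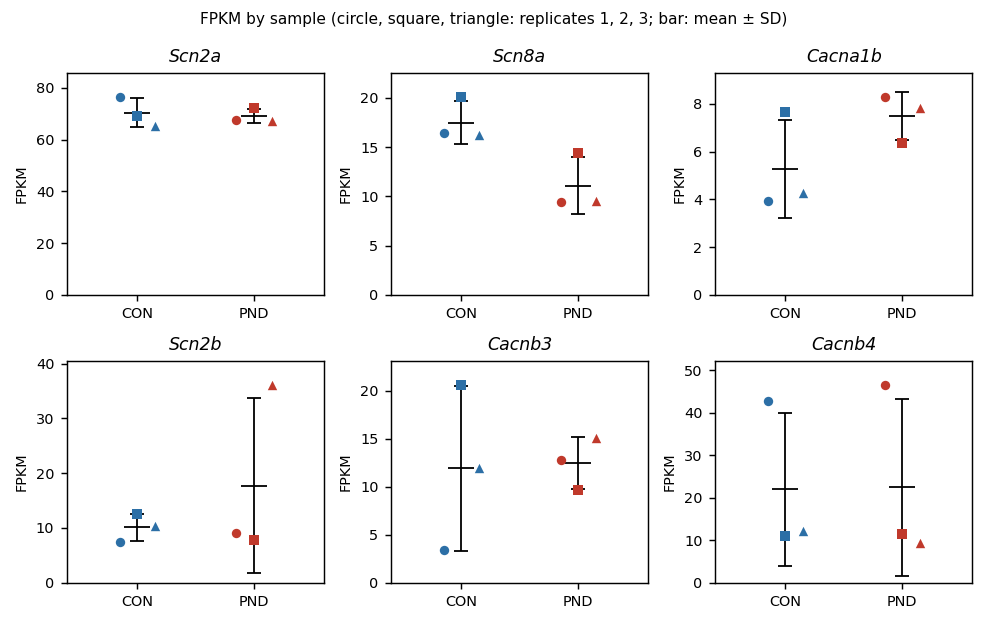
FPKM of Scn2a, Scn8a, Cacna1b, Scn2b, Cacnb3 and Cacnb4 in each sample (circle, square and triangle, replicates 1, 2 and 3) with the group mean and SD (n = 3), each axis starting at 0. Scn8a is the only panel in which the groups do not overlap. Single samples stand apart in Scn2b (36.1 FPKM, PND replicate 3) and Cacnb3 (3.38 FPKM, CON replicate 1), and replicate 1 of both groups in Cacnb4.

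The gamma group was led by Cacng3 (chr7:122670492-122769393), a TARP of cortical excitatory neurons, at 11.5, 9.57 and 13.4 FPKM in PND and 10.4, 14.8 and 9.76 in CON. The groups overlapped, with a log2 fold change of -0.01 ± 0.20 (SE). Cacng2, which encodes stargazin, ranged from 8.43 to 11.0 FPKM, Cacng7 from 5.41 to 15.7, and Cacng4 from 5.45 to 9.1. The hippocampal TARP gene Cacng8 and the glial Cacng5 averaged 2.22 and 1.21 FPKM. The summed gamma levels were 39.1, 37.2 and 50.3 FPKM in PND and 35.5, 50.9 and 38.0 in CON, with overlap, as held for the sums of all 8 subfamilies.

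Members of at least 1 FPKM spread more between samples than genes at large at that level. The median ratio of the highest to the lowest sample was 1.87 over 30 members and 1.58 over 12355 genes. A gap of at least 1 log2 unit between adjacent samples occurred in 3 of the 30 members (10%), namely Cacnb4, Scn2b and Cacnb3, and in 4.17% of genes. This gap was chosen after the values were seen, and the difference was not tested.

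Part of the spread moved with base composition. In CON replicate 1, the 10 members of at least 55% GC had a median deviation of -0.57 log2 units from their mean over samples, and in PND replicate 2 of -0.35. In CON replicate 2 and PND replicate 3 the same members deviated by 0.51 and 0.47. PND replicate 1 and CON replicate 3 stood between, at 0.07 and 0.01. Across the 30 members, Pearson's r between deviation and GC content was -0.722 in CON replicate 1, -0.455 in PND replicate 2, 0.616 in CON replicate 2 and 0.468 in PND replicate 3. These r describe genes within 1 library each, which are not independent. Over 12292 genes the r in the same libraries were -0.558, -0.377, 0.495 and 0.493. In PND replicate 1 and CON replicate 3, r was -0.0851 and 0.261 across the members. Over all genes it was 0.129 and -0.0824 there, of the opposite sign. Each group thus held 1 library with low and 1 with high values of GC-rich members.

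**Figure D5:**
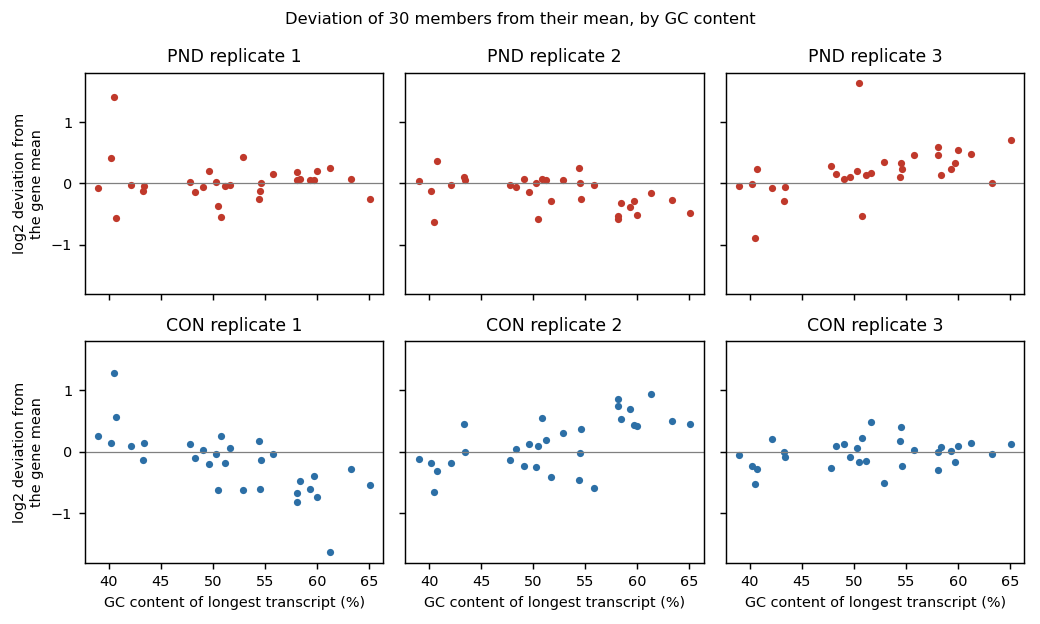
Deviation of 30 members from their own mean (log2 units) against the GC content of the longest transcript (percent), with 1 panel per sample and 1 point per member. The 10 GC-rich members lie below 0 in CON replicate 1 and PND replicate 2 and above 0 in PND replicate 3, and 9 of them lie above 0 in CON replicate 2, where Cacna2d2 is at -0.59.

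After each sample's log2 values had been corrected for GC content, the median SD within groups over the 30 members went from 0.31 to 0.23 log2 units, and it was smaller for 22 of them. Over the 10 GC-rich members it went from 0.54 to 0.27. Cacna1a went from 0.40 to 0.08 and Cacna1i from 0.51 to 0.09, and Cacnb4, which is GC-poor, only from 1.17 to 1.10. For 8 of the 30 the SD did not become smaller, among them Cacng4, which went from 0.32 to 0.54, the GC-rich Cacna2d2, from 0.30 to 0.48, and Scn8a, from 0.28 to 0.32. Scn8a, at 50.8% GC, kept a log2 fold change of -0.70 with a 95% interval of -1.20 to -0.21 and an adjusted limma p of 1.0. Cacna1b came to 0.51 with an unadjusted limma p of 0.0198 and an adjusted p of 1.0, making 2 members with a p below 0.05 where 4.36% of all genes had one. The groups then did not overlap for 5 members (Scn8a, Cacna1a and Cacna1i lower in PND, Cacna1b and Scn10a higher), against 9.7% of all genes. For Cacna1a and Cacna1i the corrected log2 fold changes were only -0.17 and -0.15, with 95% intervals of -0.40 to 0.06 and -0.47 to 0.16.

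A further 30 genes were examined, namely partners whose proteins bind or regulate these channels and genes of the NALCN leak channel complex. Of these, 29 were tested, 16 were higher and 13 lower in PND. None passed the cut-off (1.33% of all genes) or had an unadjusted p below 0.05 by limma (3.13%). Their list covered sodium channel partners (9 genes, median log2 fold change 0.00), calcium channel partners (15 tested, 0.03) and the NALCN leak channel complex (5 genes, -0.02). Nedd4l, a ubiquitin ligase that removes sodium channels from the membrane, was the only partner without overlap, which 7.66% of all genes also showed, at 40.9, 39.1 and 42.4 FPKM in PND and 28.0, 38.2 and 38.4 in CON (log2 fold change 0.24 ± 0.14, SE). Without CON replicate 2 a single partner, the calcium channel inhibitor gene Gem, passed the cut-off, where 402 of all 18185 genes did. Its log2 fold change was then -1.04, with an unadjusted limma p of 0.0429 and an adjusted p of 0.8276. With all samples it was -0.47 ± 0.55 (SE), and Gem ranged from 0.302 to 1.37 FPKM. Both genes were picked out after their values were seen.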

How the data were processed

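RNA from the prefrontal cortex of 3 PND and 3 CON mice had been depleted of rRNA and sequenced by the authors, who aligned reads with HISAT2, counted fragments per gene with StringTie, normalized with TMM and deposited 1 gene-level FPKM table per sample. The submitters' processing notes also name Bowtie 0.12.2, mm8 and mm9, with no role. The build, the annotation and the use of strand behind the FPKM are not given in the sources used here, so coordinates, GC content and transcripts were taken from GENCODE M21 (GRCm38). Symbols were matched for 20866 of 21006 identifiers.

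FPKM are not counts, so log2(FPKM + 0.1) was fitted with limma 3.58.1 in R 4.3.3 (lmFit and eBayes with an intensity trend, two-sided) on the 18185 genes averaging 0.1 FPKM or more. Fold changes are on that scale, which understates those of low genes. P-values were adjusted by Benjamini-Hochberg over all genes. The cut-off was an absolute log2 fold change above 1 with an unadjusted p below 0.05. The limma fit was tested on simulated FPKM with known fold changes. That simulation used the same dispersion for all genes and no GC trend, so it does not cover the spread seen in members such as Cacnb4. In genes with 1 annotated transcript, 93.9% to 94.5% of values up to 20.5 fragments were whole multiples of 1 fragment within 0.05, which gave the depth per sample. Over all genes only 41.4% to 44.8% were whole, so the fragments of a member are estimates. The GC correction was a lowess per sample on the GC content of the longest transcript, with a span of 0.3.

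Members were named whatever their values, apart from 2 that are counted but not reported here by name or value, as are some other genes of the lists. The value in every sample was given for members with an unadjusted p below 0.05, for members whose groups did not overlap and for the most abundant member of each subfamily. Members, partner genes and marker lists were chosen with earlier results of these data known. Alternatives were another pseudocount, other filters, other scalings, no trend, the replicate number as a block, GC correction, voom on estimated fragments and leaving out each sample. Scn4a and Cacng1 were not analysed here.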

Additional observations from a re-analysis of the deposited data

How the results depend on the processing

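Scn8a kept its direction and an unadjusted limma p below 0.05 under all 11 alternatives that kept every sample (log2 fold change -0.70 to -0.63, p 0.00451 to 0.0234). The same held without each sample in turn (-0.88 to -0.57, p 0.00101 to 0.0391), and its adjusted p was 0.6267 or higher throughout. All these settings reuse the same 6 samples, and as the Scn8a groups did not overlap, leaving out 1 sample could not change the direction. No member passed the cut-off under any of these. The count over all genes, 241, was 25 with a pseudocount of 1 and 59 when only genes averaging 1 FPKM or more were tested, and 240 to 402 without 1 sample, highest without CON replicate 2. Members with a p below 0.05 numbered 2 under the GC correction (4.36% of all genes), 2 with the replicate block added to it (3.53%) and 1 to 2 without 1 sample (2.24% to 5.36%), highest without CON replicate 2 (5.36%). Members without overlap numbered 2 under median centring or quantile normalization, where Cacna2d2 was added (7.59% and 7.72% of all genes), 5 under the GC correction with or without the block (9.7%), and 1 to 6 of 34 without 1 sample (13.7% to 21.4%), highest without PND replicate 2 (17.6%). Partners past the cut-off numbered 0 to 1 without 1 sample. The log2 fold change changed sign for Scn2a (0.0034 under quantile normalization, 0.0027 under the GC correction), Cacng3 (0.0039 under quantile normalization) and, under the GC correction, Cacna1g (-0.04), Cacnb1 (-0.01), Cacnb2 (0.0045) and Cacng7 (-0.01). Adding the block to the GC correction left those values as they were. The cause was not tested. Leaving out 1 sample changed the sign for 21 named members, whose log2 fold changes then ranged as follows: Scn2a -0.08 to 0.04, Scn3a -0.19 to 0.01, Scn9a -0.24 to 0.36, Scn4b -0.12 to 0.38, Scn2b -0.23 to 0.87, Cacna1e -0.12 to 0.04, Cacna1a -0.34 to 0.17, Cacna1i -0.38 to 0.27, Cacna1g -0.34 to 0.44, Cacna1h -0.17 to 0.45, Cacna2d3 -0.05 to 0.14, Cacna2d1 -0.16 to 0.31, Cacnb4 -0.79 to 0.55, Cacnb3 -0.35 to 0.94, Cacnb1 -0.09 to 0.32, Cacnb2 -0.13 to 0.07, Cacng3 -0.12 to 0.18, Cacng7 -0.24 to 0.52, Cacng4 -0.13 to 0.23, Cacng8 -0.38 to 0.21 and Cacng5 -0.32 to 0.13. Deviations of same-numbered samples had correlations of -0.0487, -0.451 and 0.0274. Those of differently numbered samples ran from -0.418 (PND replicate 3 with CON replicate 1) to 0.427 (PND replicate 2 with CON replicate 1). The replicate number was therefore not taken to pair the samples. With the replicate block, 226 genes passed the cut-off, 1 member had a p below 0.05 (1.99% of all genes), and Scn8a had an unadjusted limma p of 0.00498. With 3 animals per group, differences of members with wide intervals, such as Cacnb4, Cacnb3 and Scn2b, could not be resolved.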
